A study of Oryctolagus cuniculus with 6 samples.

Results

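Plasminogen activation turns the circulating zymogen plasminogen into plasmin, a protease that dissolves fibrin and opens the matrix of wounds. The tissue-type and urokinase-type activators drive it, a receptor holds urokinase on the cell surface, and serpin inhibitors stop both activators. Coagulation starts when tissue factor, a membrane protein of epithelium, adventitia and other cells outside the blood, meets plasma factor VII. Tissue factor pathway inhibitor and the protein C pathway restrain it. In airway mucosa these genes lie where epithelium, vessels and leukocytes meet at a wound.

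The 9 genes described are PLAT, PLAU, PLAUR, SERPINB2, F3, F10, TFPI, PROCR and PROS1, found by symbol among 29587 genes of the deposited table. All 9 had a row, and 8 passed the filter on low counts among 13724 genes tested. The set was selected on measured values, the counts of these same libraries between the same groups, so the differences describe the libraries and are no independent support for a change of the pathway. The calls given below come from the fit over all genes and carry that limit.

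The animals were New Zealand rabbits, 3 months old, and RNA of their tracheal mucosa was sequenced as polyA libraries. In the 3 animals of the high cuff pressure group, a tube of 3.0 mm had been placed 13 cm deep, and its cuff kept at 35 cmH2O over 2 h as a model of mucosal injury. The 3 controls are given only as controls, with no word on intubation, and the time from injury to sampling is not stated. The labels put all 6 libraries in batch 1 and do not say that each came from its own animal, so the spread behind the p-values may in part be technical.

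Library totals ran from 10501734 to 14415754 counts and did not separate the groups (exact permutation test, two-sided p = 0.90, where 3 against 3 cannot go below 0.10). The labelled cell type is epithelial. Epithelial markers such as EPCAM, KRT5 and FOXJ1 were present in all 6 libraries, but so were smooth muscle markers, with a summed level of 384 to 5512 CPM in the high pressure libraries and 4417 to 7345 CPM in the controls. Replicate 1 of the high pressure group stood apart, with the lowest smooth muscle sum and the highest neutrophil marker sum (6807 CPM). The genes of the mitochondrial chromosome took 27.8% to 30.5% of counts with high pressure and 5.28% to 11.5% in controls. Scaling by total counts alone moved the median log2 fold change of all genes from -0.01 to -0.40, so levels below are TMM-normalised CPM (counts per 1e6 counts) unless FPKM, the deposited value per kilobase, is named.

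With high cuff pressure, PLAT, PLAUR, SERPINB2 and PROCR rose and PROS1 fell. PLAU, F3 and TFPI did not pass, and F10 had too few counts to pass the filter. At an edgeR adjusted p under 0.05, 4 of the 8 tested genes were thus higher and 1 was lower. SERPINB2, with 0 counts in the controls, passed the filter only through the high pressure libraries and is part of each of these figures. Among all genes tested 5.28% were called, 3.67% higher and 1.62% lower. On the CPM scale the groups did not overlap in 6 of the 8, and in 37.3% of all genes tested. The median log2 fold change was 1.18 over the 8 genes and -0.01 over all genes. In the authors' deposited table, the q-value was under 0.05 for 6 of the 9 genes, among them PLAU (q = 0.0274), and for 8.89% of the genes in that table.

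**Figure D1:**
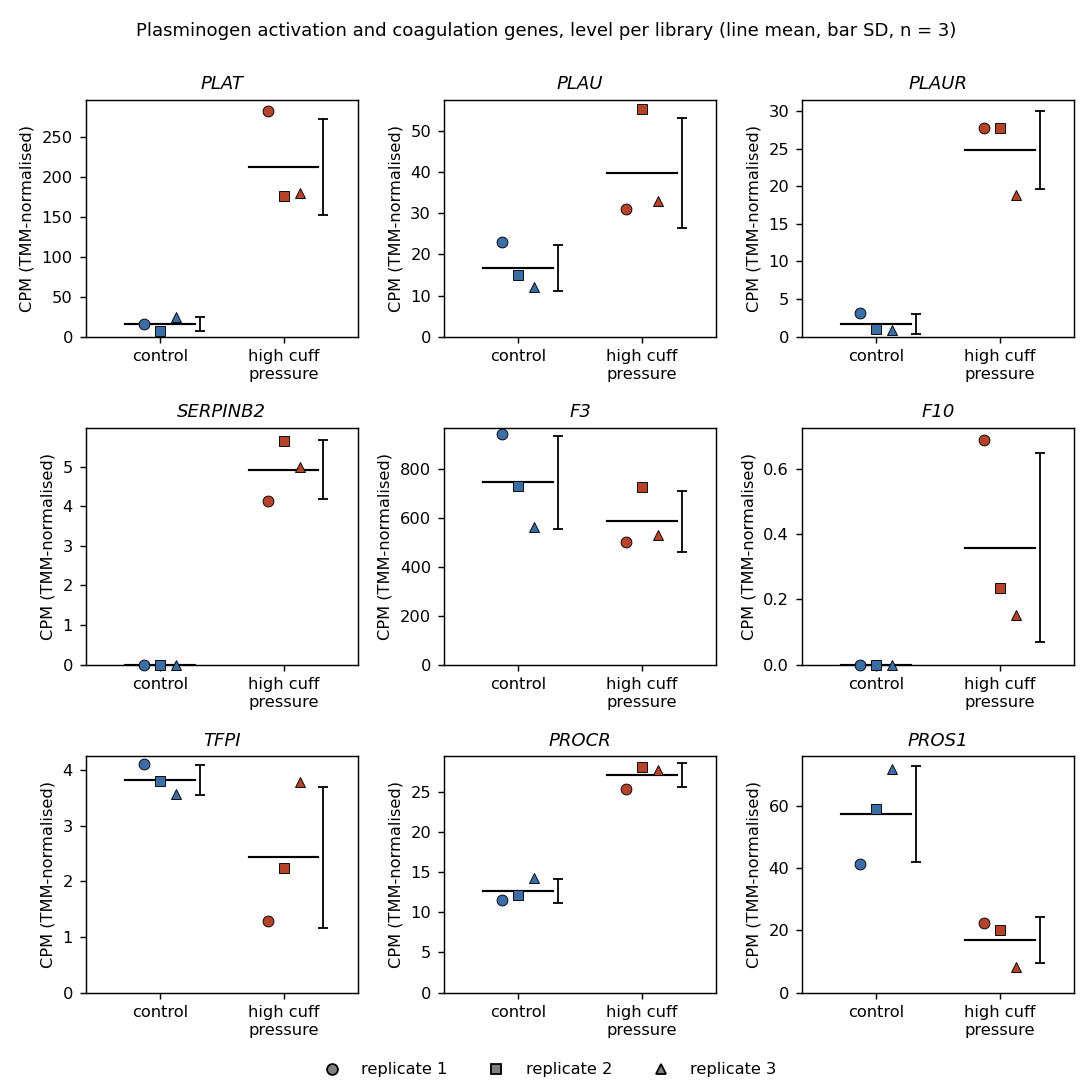
Level of each gene in every library, as TMM-normalised CPM on a linear axis from 0, with replicates 1 to 3 of each group as separate symbols, the group mean as a line and the SD as a bar (n = 3). The groups are apart for PLAT, PLAU, PLAUR, SERPINB2, PROCR and PROS1, while F3 and TFPI overlap. F10 has 0.235 and 0.152 CPM in high pressure replicates 2 and 3, or 2 counts in each. This is under the floor of 3 counts (0.353 and 0.227 CPM there), so these are not distinguishable from controls at 0.

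Of the activators, PLAT carried the larger difference. PLAT encodes tissue-type plasminogen activator, which endothelium releases and which works best on fibrin. Its level was 282, 176 and 180.0 CPM in high pressure replicates 1 to 3, against 16.2, 7.21 and 24.3 CPM in the controls. Even the lowest high pressure library stood far above the highest control. The log2 fold change was 3.74 ± 0.47 SE, a 13.4-fold rise (edgeR adjusted p = 0.017). The gene (ENSOCUG00000009967) lies on the unplaced scaffold GL018706, 1094280 to 1113442, with a model length of 3505 bp.

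PLAU encodes urokinase-type plasminogen activator, which migrating epithelial cells and leukocytes use at their surface. It stood at 31.1, 55.3 and 33.0 CPM with high pressure and at 22.9, 15.1 and 12.03 CPM in controls. The groups did not overlap, yet the log2 fold change of 1.26 ± 0.35 SE did not pass (edgeR adjusted p = 0.069). It passed with DESeq2 (adjusted p = 0.0105) and without high pressure replicate 1 (edgeR adjusted p = 0.039). The PLAU row (ENSOCUG00000003155) covers chromosome 18, 13595218 to 13601355.

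The order of the activators differed between the groups on the FPKM scale, which allows levels of different genes to be set side by side. In controls PLAU had 7.73 ± 1.90 FPKM (SD, n = 3) and PLAT 5.20 ± 2.95 FPKM, and their ranges overlapped. With high pressure PLAT had 53.2 ± 16.6 FPKM and PLAU 14.1 ± 3.77 FPKM, with no overlap. The ratio of PLAT to PLAU was 6.28, 2.20 and 3.77 in the high pressure libraries and 0.491, 0.331 and 1.40 in the controls. PLAT thus exceeded PLAU in every high pressure library, and in 1 of 3 controls.

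The receptor gene PLAUR rose alongside. PLAUR encodes the urokinase receptor, which anchors urokinase on leukocytes and migrating epithelium. Values of 27.8, 27.8 and 18.8 CPM with high pressure faced 3.16, 0.965 and 0.875 CPM in controls. The log2 fold change was 3.91 ± 0.54 SE, or 15.0-fold (edgeR adjusted p = 0.018), and 4.74 without control replicate 1, the highest control. The row (ENSOCUG00000027400) lies on scaffold GL018881, 85638 to 104322. The FPKM ratio of PLAUR to PLAU was 0.866 to 1.54 in the high pressure libraries and 0.111 to 0.238 in the controls, so the groups did not overlap on this ratio.

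Neutrophil markers were higher in the same libraries as PLAUR. Of 9 neutrophil markers with a row, 7 were tested, of which 5 rose and 0 fell. Among all genes tested 3.67% were called higher and 1.62% lower. CSF3R, CXCR1 and FPR1, which are among the 5, had at most 13 counts in any control. Like SERPINB2, they passed the filter on low counts only through the high pressure libraries, so their calls are a description. S100A9 did not pass (log2 fold change 3.99, edgeR adjusted p = 0.12), nor did LTF (-1.30), which overlapped between the groups. The summed level of the list was 6807, 3622 and 1498 CPM in high pressure replicates 1 to 3 and 7.59 to 433 CPM in controls. S100A9 made up much of that sum, at 4294, 2272 and 846 CPM with high pressure and 63.1, 2.96 and 401 CPM in controls. MPO, a granule gene made in marrow precursors, had 1 count in all 6 libraries. CSF3R, the granulocyte colony-stimulating factor receptor, ran at 236, 89.3 and 34.9 CPM in high pressure replicates 1 to 3. PLAUR, too, was lowest in replicate 3, while replicates 1 and 2 were level for it. Of 10 monocyte and macrophage markers tested, 4 rose (CD14, CD68, CSF1R and MARCO) and 0 fell. MARCO, with 8, 4 and 2 counts in the controls, passed the filter only through the high pressure libraries. The complement genes C1QA, C1QB and C1QC and the lysozyme gene LYZ overlapped between the groups, with log2 fold changes of -1.05, -0.93, -0.80 and -0.35 that did not pass. The summed level of that list overlapped as well, at 212 to 398 CPM against 116 to 246 CPM. The part of these cells in the PLAUR, PLAU and SERPINB2 values was not tested. In bulk RNA, fewer cells of a type and less RNA per cell cannot be told apart, nor can more cells and more RNA.

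**Figure D2:**
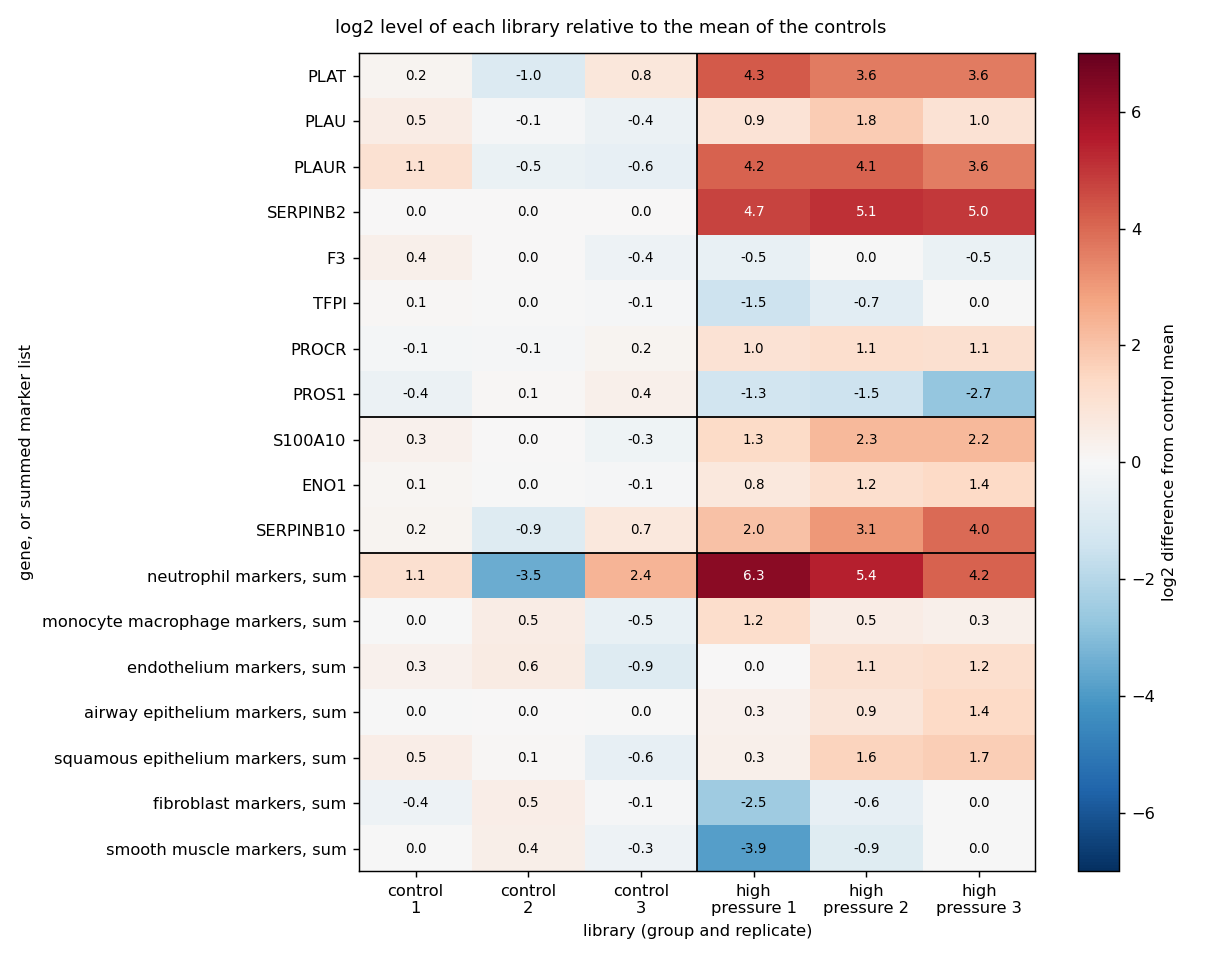
Log2 level of each library (columns) relative to the mean of the 3 controls for the 8 tested genes, 3 further genes that rose and the summed levels of 7 cell type marker lists (rows), with the difference printed in each cell. In the high pressure libraries the neutrophil sum lies between 4.2 and 6.3, PLAUR between 3.6 and 4.2 and SERPINB2, whose value here depends on the prior count of 2, between 4.7 and 5.1.

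SERPINB2, of the inhibitors, rose as well. It encodes plasminogen activator inhibitor-2, a clade B serpin of macrophages and stratified epithelium that inhibits urokinase in vitro. It had 42, 48 and 66 counts, or 4.14, 5.65 and 5.0 CPM, in the high pressure libraries and 0 counts in each control. Against a floor of 3 counts over the control group it was at least 66.9-fold higher (edgeR adjusted p = 0.016). The gene passed the filter on low counts only through the group where it is high, so that p is a description and no support. Leaving out control replicate 2 lowered that bound to 41.5-fold, and leaving out control replicate 3 to 44.5-fold, because fewer control reads remained. Squamous epithelium markers had summed levels of 1216 to 3214 CPM with high pressure and 654 to 1324 CPM in controls, which overlap. KRT13 made up most of these sums and did not pass (log2 fold change 1.23, edgeR adjusted p = 0.13). The other 2 of 3 tested rose, KRT16 at 69.8 to 87.7 CPM and TGM1 at 9.96 to 15.2 CPM with high pressure. TGM1, with 23, 11 and 7 counts in the controls, passed the filter only through the high pressure libraries. How far squamous epithelium accounts for SERPINB2 was not tested.

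SERPINB2 (ENSOCUG00000014452, chromosome 9, 104097163 to 104107612) sits in a row of 8 clade B serpin genes. Its downstream neighbour SERPINB10, a serpin of blood-forming cells in humans, begins after a gap of 10687 bp. SERPINB10 rose as well, from 4.70, 2.19 and 6.92 CPM in controls to 17.5, 35.9 and 68.7 CPM (a log2 difference of 3.15 ± 0.60 SE with an edgeR adjusted p of 0.034). Without high pressure replicate 3, the highest, it was 2.54 and did not pass (edgeR adjusted p = 0.060). SERPINB7, the upstream neighbour, had 0, 1 and 2 counts in the high pressure libraries and 0 in the controls. SERPINB8, next after SERPINB10, overlapped between groups at 0 to 1.65 CPM against 0.256 to 0.583 CPM. SERPINB5, or maspin, and SERPINB11 stood at 28.1 to 84.7 CPM and 20.0 to 57.4 CPM with high pressure. They overlapped the controls and did not pass, with log2 fold changes of -0.86 and -0.74.

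**Figure D3:**
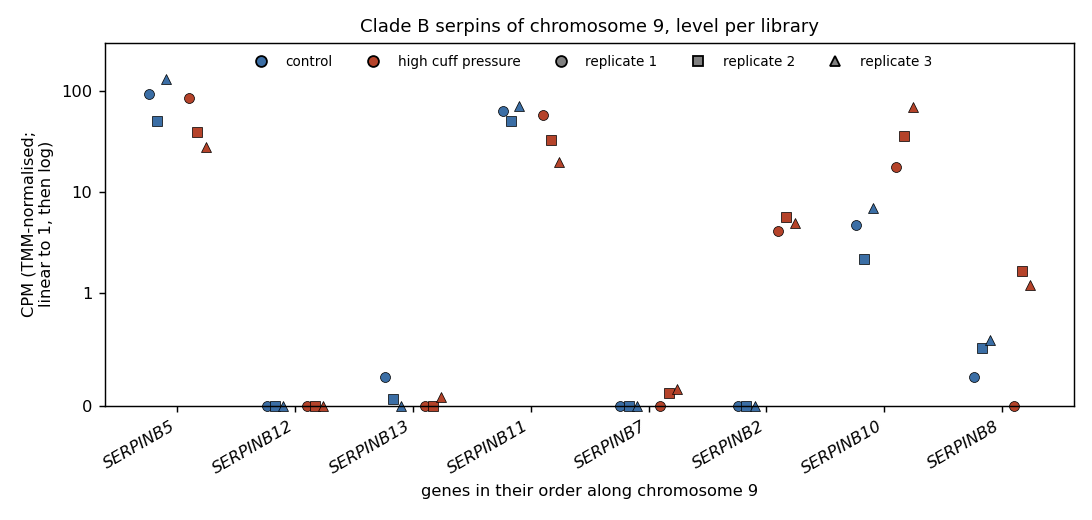
CPM of the 8 clade B serpin genes of chromosome 9 in every library, in chromosomal order, on an axis that is linear to 1 and logarithmic above. The adjoining genes SERPINB2 and SERPINB10 have all high pressure libraries above all controls, while SERPINB5, SERPINB11 and SERPINB8 overlap.

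On the plasminogen binding side, S100A10 and ENO1 rose. S100A10, which with annexin A2 forms a cell surface plasminogen receptor, had 264, 503 and 495 CPM against 126, 105 and 84.8 CPM (a log2 difference of 2.00, edgeR adjusted p = 0.023). ENO1, the glycolytic enolase that also binds plasminogen at the cell surface, stood at 499 to 771 CPM against 281 to 321 CPM (1.12, edgeR adjusted p = 0.0497). ENO1 did not pass with total-count scaling (log2 fold change 0.73, edgeR adjusted p = 0.091), among others. Over 17 alternative fits ENO1 passed in 6 and S100A10 in 11. PLGRKT, a plasminogen receptor with a C-terminal lysine, had 12.9 to 18.9 CPM against 16.9 to 25.0 CPM and did not pass. SERPINE2, protease nexin-1, overlapped between groups at 235 to 377 and 147 to 301 CPM. Plasminogen itself (PLG), ANXA2 and LRP1 were not analysed here.

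Tissue factor, the trigger of coagulation, was the most abundant transcript of the 9 in both groups. F3 stood at 502, 729 and 529 CPM with high pressure and at 943, 730.1 and 565 CPM in controls, and the groups overlapped on this scale. On the FPKM scale they did not, at 196 to 258 FPKM with high pressure and 297 to 425 FPKM in controls. FPKM is scaled by total counts, however, and on log2(FPKM + 1) of filtered genes the median of all genes also fell, by a log2 fold change of -0.36. For F3 the log2 fold change of -0.35 ± 0.30 SE in TMM-normalised counts did not pass (edgeR adjusted p = 0.47). It ran from -0.74 with total-count scaling to -0.14 without control replicate 1, and it passed in 0 of 17 alternatives. By mean FPKM, F3 ranked 198th of 13724 tested genes in controls (369 ± 65.9 FPKM) and 312th with high pressure (222 ± 32.1 FPKM). The row (ENSOCUG00000004834) spans 69962637 to 70014170 on chromosome 13, and its model has 2288 bp.

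Factor X, the plasma zymogen that tissue factor and factor VIIa activate, is made mainly by liver. F10 had 7, 2 and 2 counts with high pressure and 0 in each control. With the high pressure counts taken as observed, the ratio to a floor of 3 counts over the control group was 4.72. Without high pressure replicate 1, which held 7 of its 11 counts, this ratio was 2.52. The ratios are no lower bounds, since the error of so few high pressure counts is not in them. Its row lies on a short unplaced contig, AAGW02081550, 8407 to 25193, beside F7. F7 had 13, 9 and 5 counts against 5, 8 and 3, and it was not tested either. ALB, the defining liver transcript, had 0 or 1 count per library. The fibrinogen genes FGA, FGB and FGG had at most 4 counts in any library.

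TFPI encodes the inhibitor that shuts off tissue factor with factor VIIa and factor Xa, and endothelium is its main source. It was scarce, with 1.28, 2.24 and 3.79 CPM in the high pressure libraries and 4.10, 3.796 and 3.57 CPM in controls. Replicate 3 of the high pressure group lay within the control range, and the log2 fold change of -0.64 ± 0.45 SE did not pass (edgeR adjusted p = 0.37). Without that library it was -1.12 and did not pass either. On the FPKM scale the groups did not overlap, at 1.08 to 3.27 FPKM against 3.99 to 4.34 FPKM. As given for F3, the median of all genes fell on that scale too. Fibroblast markers had summed levels of 267, 995 and 1478 CPM in high pressure replicates 1 to 3 and 1162 to 2067 CPM in controls, and 2 of 7 tested fell. Smooth muscle markers had 384, 3080 and 5512 CPM in the same libraries, and endothelial markers 487, 993 and 1083 CPM. All these sums, like TFPI, were lowest in replicate 1 and highest in replicate 3. The same order held for the sums of airway epithelium markers (1881, 2710 and 3947 CPM) and squamous markers (1216, 2854 and 3214 CPM). The neutrophil sums and the monocyte and macrophage sums ran in the reverse order. The endothelial sums lay within or above the control range of 257 to 721 CPM. The part of these cells in the TFPI value was not tested. The FPKM ratio of F3 to TFPI was 181, 151 and 64.7 with high pressure and 107, 89.1 and 73.3 in controls, which overlap. The TFPI row (ENSOCUG00000008253) covers chromosome 7, 127829920 to 127896290.

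The protein C pathway genes went in opposite directions. PROCR encodes the endothelial protein C receptor, which presents protein C to thrombin and thrombomodulin. It had 25.3, 28.1 and 27.7 CPM with high pressure and 11.5, 12.1 and 14.3 CPM in controls, with little spread within a group. The log2 fold change was 1.10 ± 0.23 SE, or 2.14-fold (edgeR adjusted p = 0.042). With total-count scaling the call was lost at a log2 fold change of 0.69 (edgeR adjusted p = 0.099), on a scale where the median of all genes fell by 0.40. Of 7 endothelial markers tested, 1 rose and 0 fell, and their sum was 487 to 1083 CPM with high pressure and 257 to 721 CPM in controls. The part of endothelium in the PROCR value was not tested. The row (ENSOCUG00000016598) covers chromosome 4, 4622624 to 4626162.

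PROS1 encodes protein S, the cofactor of activated protein C and a ligand of the TAM receptors that clear dying cells. Levels were 22.2, 20.0 and 8.33 CPM with high pressure against 41.3, 59.0 and 71.6 CPM in controls. The log2 fold change was -1.77 ± 0.40 SE, with controls 3.41 times as high (edgeR adjusted p = 0.048). On the FPKM scale PROCR was 5.15 to 14.9 times PROS1 in the high pressure libraries and 0.898 to 1.26 times in the controls.

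The PROS1 row (ENSOCUG00000025358) spans 126708354 to 126792632 on chromosome 14. The strand setting of the counting is not known here, so for PROS1 and every other gene, reads of transcripts from the opposite strand cannot be told apart from its own, and their part in the values was not tested.

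The order of the 9 genes by FPKM therefore differed between groups. In controls it ran F3, PROS1, PROCR, PLAU, PLAT, TFPI and PLAUR, with SERPINB2 and F10 listed at 0. The neighbours PROS1 and PROCR, PLAU and PLAT, and PLAT and TFPI overlapped over libraries. With high pressure it ran F3, PLAT, PROCR, PLAUR, PLAU, PROS1, SERPINB2, TFPI and F10. There PLAUR and PLAU, PROS1 and SERPINB2, and SERPINB2 and TFPI overlapped. PLAT moved from rank 9432 to rank 1401 among the 13724 tested genes, and PLAUR from 12360 to 4489.

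Further genes of the same systems were taken from 5 lists of 66 genes in all, of which 52 had a row, 28 were tested and 7 had 0 counts in every library. Of the 28, 4 rose and 0 fell. Of 10 plasminogen system genes 3 rose, S100A10 and ENO1 among them, and of 6 clade B serpins 1 rose, SERPINB10. The median log2 fold change was 0.64 for the plasminogen system, -0.27 for 6 coagulation factors, 0.43 for 3 anticoagulants, 0.60 for 3 receptors and -0.42 for the clade B serpins. With total-count scaling 3 of the 28 rose and 2 fell, and with DESeq2 6 rose and 1 fell. Of the most abundant clade B serpins, SERPINB6 had a log2 fold change of 0.77 (edgeR adjusted p = 0.081), while SERPINB9, an inhibitor of granzyme B, had -1.09 and SERPINB1, an inhibitor of neutrophil proteases, had -0.11, and none of them passed.

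The coagulation factor, anticoagulant and receptor lists gave 0 calls with edgeR and TMM scaling, with an unadjusted p under 0.05 for 1 factor, 0 anticoagulants and 2 receptors. FGL2, a factor, was called lower by edgeR with total-count scaling (log2 fold change -1.98, adjusted p = 0.0497), by DESeq2 (adjusted p = 0.018) and by limma on filtered log2 FPKM with either pseudocount. VWF, the platelet-tethering factor of endothelium, had 293, 643 and 717 CPM with high pressure and 412, 572 and 151 CPM in controls. GGCX and VKORC1, which carry out the vitamin K-dependent modification of clotting factors, had log2 fold changes of -0.04 and 0.12. ANXA5, the phospholipid-binding annexin, was the most abundant anticoagulant gene at 285 ± 33.6 FPKM against 274 ± 32.02 FPKM. On the CPM scale its groups did not overlap, at 334, 460 and 398 CPM against 279, 297 and 288 CPM. Its log2 fold change of 0.46 did not pass (edgeR adjusted p = 0.22). F2RL1, the protease-activated receptor 2 of airway epithelium, had 62.0 to 69.2 CPM against 37.3 to 50.3 CPM without passing (0.60 ± 0.21 SE, edgeR adjusted p = 0.11). GP9 and GP1BA, platelet receptor subunits, had 0 counts in all 6 libraries. THBD, which encodes thrombomodulin, was not analysed here.

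**Figure D4:**
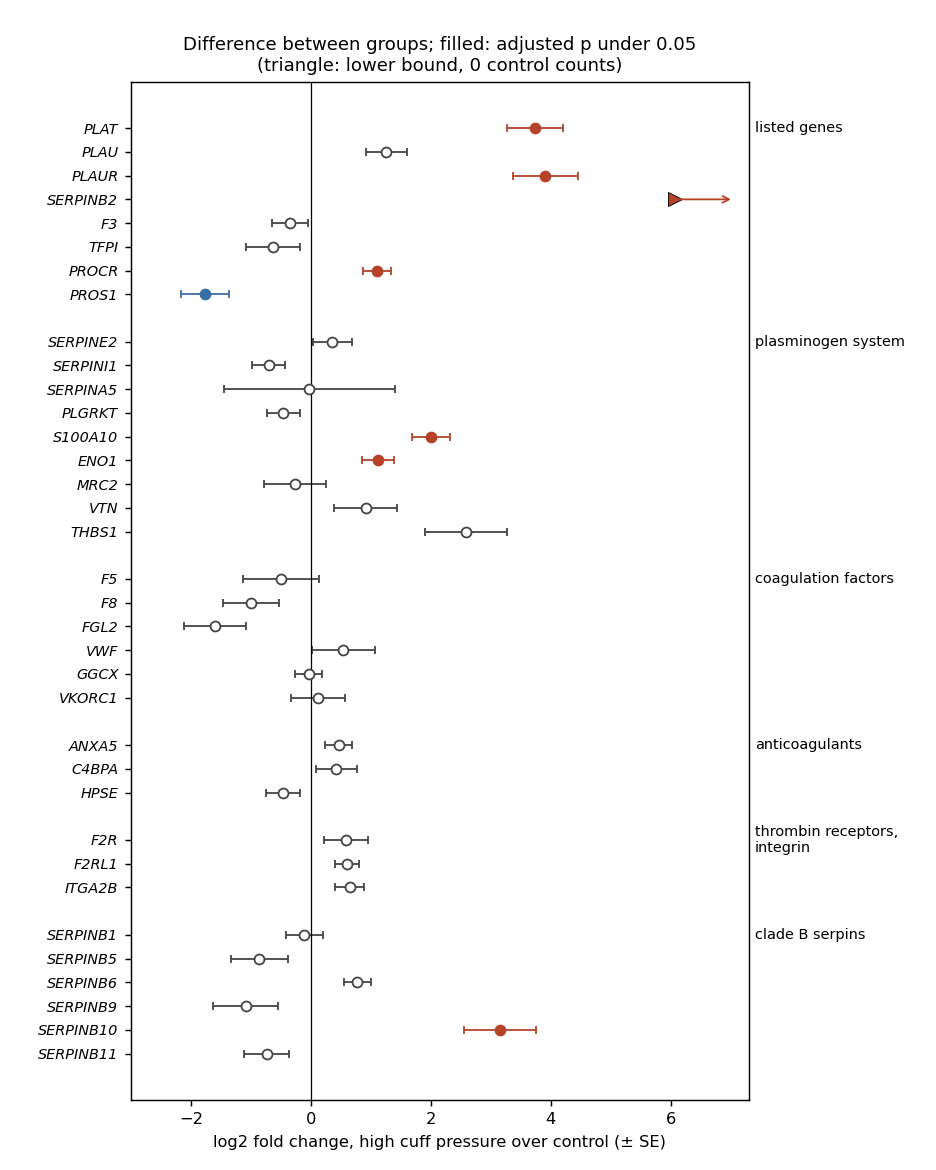
Log2 fold change of high cuff pressure over control with its SE for the 8 tested genes and 27 of the 28 tested genes of the 5 further lists, filled where the adjusted p was under 0.05 (red higher, blue lower). SERPINB2 is drawn at its lower bound of 6.06, since its controls had 0 counts. The calls fall on PLAT, PLAUR, SERPINB2, PROCR, PROS1, S100A10, ENO1 and SERPINB10, and none on the coagulation factor, anticoagulant or receptor lists.

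The calls depended on single libraries. Without high pressure replicate 2, control replicate 2 or control replicate 3, 0 of the 8 tested genes passed with edgeR, although 6 had an unadjusted p under 0.05 in each of these fits. Over all genes those fits called 4, 0 and 0 genes. Without control replicate 1, 2 passed (PLAUR and SERPINB2), and without high pressure replicate 3, 3 passed (PLAT, PLAUR and SERPINB2). Without high pressure replicate 1, the library that stood apart, 6 passed, PLAU among them, and 2623 genes were called in all. The direction of each of the 8 genes held in all 6 of these fits.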

How the data were processed

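The deposited gene table holds raw counts per gene and FPKM values computed by the authors, per the file headers. A companion table adds the p-value and q-value per gene from the authors' deposited comparison, and its counts were identical for all 19001 of its genes. HISAT2 2.0.4 and StringTie 1.3.3b, and edgeR with no version, are listed without roles, per the submitters' processing notes. The build, annotation and strand setting were not given in the sources used. Libraries were grouped by their labels.

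Counts were tested with edgeR 4.0.16 in R 4.3.3 (filterByExpr, TMM, glmQLFit with robust estimation, glmQLFTest, Benjamini-Hochberg over 13724 genes). SE is the log2 fold change over the square root of F, and log2 CPM used a prior count of 2. The code was tested on simulated data. A floor of 3 counts equals 0.208 to 0.286 CPM in a single library; floors cover counting error only. Pairs of libraries within a group were not copies of each other (chi-square of their counts, divided by its degrees of freedom, 60.0 to 146). Alternatives used DESeq2 1.42.0, limma 3.58.1, other scalings, filters and FPKM pseudocounts, a replicate block and leaving out each library.

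The 9 genes and the lists were chosen with earlier results of these data known. Named are all 9, list genes that passed, the 3 genes per list with the highest mean FPKM, PLG, THBD and F2RL1, and the genes most correlated with each of the 9. Others, such as SERPINB5, SERPINB7, SERPINB8, SERPINB11, PLGRKT, F7, the fibrinogen genes, SERPINA5, THBS1 and FGL2, were named after their values were seen. No test was made on a list. Some genes are not reported here. The deposited enrichment tables were not used.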

Additional observations from a re-analysis of the deposited data

How the results depend on the processing

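Over 17 alternatives, 0 of 136 log2 fold changes of the 8 tested genes reversed. Their call was lost in 27, of which 20 left out a library, and gained in 2, both for PLAU. The number of these genes called, 5, was 0 to 6 on leaving out each library in turn, 3 with log2(FPKM + 1) and no filter, and 3 with the replicate block. For the 28 list genes the number called, 4, was 0 to 9 on leaving out each library, 7 with DESeq2, 1 with log2(FPKM + 1) and no filter, and 2 with the block. Over all genes 725 were called. This was 1630 with total counts only (389 higher and 1241 lower, against 503 and 222), 2631 with DESeq2 (1461 and 1170), 2192 and 1859 with log2(FPKM + 1) and log2(FPKM + 0.1) on filtered genes, 306 with log2(FPKM + 1) and no filter, 244 with the block, and 0 to 2623 on leaving out each library. The cause was not tested. A fit without mitochondrial genes, chosen after seeing the data, called 5 of the 8 and 4 of the 28.

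Same-numbered libraries of the groups did not deviate together (correlations of deviations -0.28, -0.20 and -0.23), so the replicate numbers were not taken as pairs. PROCR and PROS1 were the genes of the 8 whose call was lost under the block (edgeR adjusted p = 0.15 and 0.093). F10 did not pass the filter on low counts, and of these fits only those with no filter included it. In the authors' deposited table its q-value was 0.0553. At this depth, levels under the floor of 3 counts in a library are not distinguishable from 0.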

Other observations

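SERPINA5, THBS1 and FGL2, named after their values were seen, varied in ways their group means do not show. SERPINA5, the protein C inhibitor that also inhibits urokinase, had 25.2 CPM in high pressure replicate 1 and 0.235 and 0.076 CPM in replicates 2 and 3, against 5.55, 12.9 and 7.51 CPM in controls. Its log2 fold change was -0.03 over all libraries and -5.84 without replicate 1 (edgeR adjusted p = 0.0094). THBS1, thrombospondin-1, a platelet and wound matrix protein, had 109, 88.4 and 338 CPM against 56.2, 18.0 and 15.3 CPM and did not pass (2.58 ± 0.68 SE, edgeR adjusted p = 0.064, and 1.73 without high pressure replicate 3). FGL2, a membrane-bound prothrombinase of macrophages and endothelium, had 2.27, 5.30 and 11.1 CPM against 20.2, 16.3 and 20.7 CPM and did not pass (-1.61 ± 0.52 SE, edgeR adjusted p = 0.095, but 0.0497 with total-count scaling).

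Genes most like each of the 8 over the 6 libraries were ranked by Pearson's r of log2 CPM, as a description. The libraries share a group step, so r is high for any gene that differs between the groups. SERPINB2 was nearest to CD68, a lysosomal protein of macrophages (r = 0.999), and to FOSL1, an AP-1 subunit (0.995). PLAT was nearest to S100A12 (0.997) and PLAUR to ARG1 (0.996) and BCL3 (0.994). PROCR was nearest to DPP3 (0.996), PROS1 to TSGA10 (0.996), TFPI to RUNX1T1 (0.998) and PLAU to FAM193B (0.998). F3, whose groups overlap in CPM, had its nearest at a lower value (HTR4, 0.955). After centring on the group means the nearest genes were others throughout, such as SLIT3 for PLAT (0.992) and HLX for PLAUR (0.997), except that TMEM214 stood among the 3 nearest to PLAU both times.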
